A study of Mus musculus with 12 samples.

Results

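The effect of minocycline on the retina of mice that kept their pericytes was examined in 6 of the 12 RNA-seq libraries of the series, 3 labelled IgG and 3 labelled IgG+Mino, and only genes on the autosomes and the mitochondrial genome were described, 19071 of the 20143 genes tested. All animals were WT pups of the C57BL6/J strain that received 30 µg of antibody on postnatal day 1 and whose retinas were collected on day 28. In the IgG and IgG+Mino groups this was a rat IgG isotype control; in the APB5 and APB5+Mino groups, used here only for comparison, it was APB5, a rat monoclonal antibody that blocks PDGFRB, the receptor through which pericytes are recruited to vessels. The IgG+Mino and APB5+Mino groups also received minocycline at 45 mg/kg by daily intraperitoneal injection from day 5 to day 27, and whether the other groups received vehicle was not given in the sources used here. The IgG groups carry no lesion, so the comparison of IgG+Mino with IgG asks what the drug does to an uninjured, developing retina. Each library is whole retina, so a gene at lower counts can reflect fewer cells of a type or less RNA per cell, and these cannot be told apart. By the study's description each group was of 3 mice, and the labels do not say whether 1 or both retinas of a mouse made a library.

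Minocycline is a tetracycline antibiotic that enters the central nervous system and is widely used in mice to restrain microglia, the resident macrophages of the retina. Tetracyclines bind the bacterial ribosome, and the ribosome of mitochondria, which translates the few proteins encoded by the mitochondrial genome, descends from bacteria. The respiratory chain combines subunits encoded in the mitochondria with more numerous nuclear-encoded ones, and cells that sense an imbalance between them can turn on the integrated stress response through the transcription factor Atf4. In the retina, microglia tile the plexiform layers, and the vessels form the inner blood-retina barrier from endothelial cells, their tight junctions and transporters, and the pericytes around them.

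The 6 libraries held 54774684 to 59411044 counts and detected 26897 to 27590 genes each, and same-group libraries correlated at r = 0.980 to 0.991 over the log2 CPM (counts scaled to the same library total) of all genes tested. Libraries of different groups correlated at r = 0.975 to 0.986, a range that overlaps the other. Rod, cone, bipolar and Muller glia genes were at high CPM in every library: Gnat1, the alpha subunit of rod transducin, ranged from 9868 to 15249 CPM and Glul, the glutamine synthetase of Muller glia, from 2098 to 2767 CPM. Blood and lens genes differed between single libraries. The summed CPM of 20 lens genes ranged from 135 to 1063 in IgG and from 42.7 to 2693 in IgG+Mino, and of the 4 haemoglobin genes tested Hba-a1 was at 16.8, 21.6 and 82.8 CPM in IgG and at 68.0, 59.8 and 61.7 CPM in IgG+Mino, and the part of these tissues in the results was not tested. One property of the libraries limits every result that follows. The X-linked transcript Xist had 47210 to 91647 counts in the 3 IgG libraries and 20 to 27 in the 3 IgG+Mino libraries, and 4 Y-linked genes together had 1 to 3 counts in IgG and 9336 to 12640 in IgG+Mino, so that minocycline and sex cannot be told apart in this comparison. The APB5+Mino and APB5 groups each held 1 library with high Xist and 2 with low Xist and shared no library with the IgG groups, so their difference is given beside the main one.

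On the first principal component of the 6 libraries, which held 34.6% of the variance, IgG replicate 3 lay at -52.9, IgG+Mino replicates 2 and 3 lay at 37.92 and 35.95, and the remaining libraries lay between -12.3 and -1.05. The same libraries stood apart when 14145 autosomal protein-coding genes were placed in 5 bins by the summed length of their exons. In the bin of shortest genes, 216 to 3520 bases, IgG replicate 3 lay 0.17 above the mean of the 6 libraries on the log2(CPM + 0.5) scale, and IgG+Mino replicates 2 and 3 lay at -0.13 and -0.09. In the bin of longest genes, 10118 to 117522 bases, the order was turned, with IgG replicate 3 at -0.17 and IgG+Mino replicates 2 and 3 at 0.14 and 0.13. The median log2 fold change of IgG+Mino over IgG went from -0.13 in the shortest bin to 0.12 in the longest. The APB5 pair went from -0.32 to 0.20. The part of exon length in the gene-level differences given below was not tested, and the replicates that carry it are named there.

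**Figure D1:**
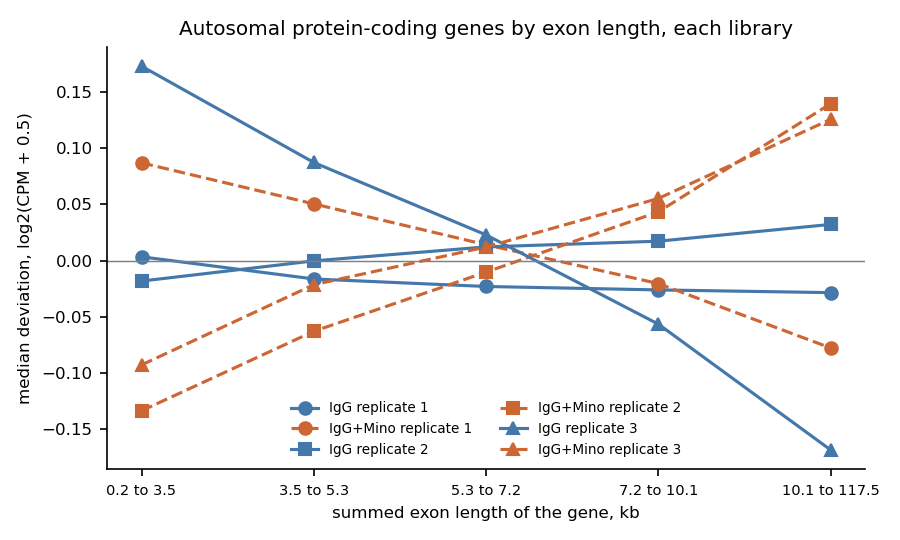
Median deviation of autosomal protein-coding genes from the mean of the 6 libraries, on the log2(CPM + 0.5) scale, in 5 bins of summed exon length; each line is 1 library, blue for IgG and orange for IgG+Mino. IgG replicate 3 and IgG+Mino replicate 1 slope down with length, IgG+Mino replicates 2 and 3 slope up, and IgG replicates 1 and 2 stay closest to zero in the shortest and longest bins.

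Very few genes passed the test. A call needed an adjusted p no higher than 0.05 and a log2 fold change no closer to 0 than 1, and of 19071 autosomal and mitochondrial genes tested (19055 and 16) none was called higher and 1 was called lower in IgG+Mino by edgeR's quasi-likelihood test, which is 0.00524% of them. At an unadjusted p under 0.05, 952 genes (4.99%) were higher and 639 (3.35%) were lower. DESeq2 called 8 genes higher and 6 lower, and limma voom with quality weights called 50 and 55. All 3 IgG+Mino libraries lay above all 3 IgG libraries for 1358 genes (7.12%) and below them for 1405 (7.37%). The median log2 fold change over all genes tested was -0.01, and the split of the genes at an unadjusted p under 0.05 depended on scaling, being 457 higher and 1375 lower when counts were scaled by library size alone. The same test called 157 genes higher (0.818%) and 162 lower (0.844%) of 19193 in the APB5 pair.

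The only gene called was Gm21093, an unprocessed pseudogene at chr4:42025429-42026902 on the minus strand of GRCm39, which was singled out after its values were seen. It had 72, 58 and 52 counts in the IgG libraries and 0 in all 3 IgG+Mino libraries, so that it was at least 19.5-fold lower there against a floor of 3 counts per library (adjusted p = 0.0103). The groups did not overlap, yet all 1425 windows of 50 bases in the gene occurred again elsewhere on chromosome 4, so its counts cannot be assigned to this copy. In the other 6 libraries it had 97, 59 and 143 counts in APB5 and 0, 85 and 0 in APB5+Mino, so that APB5+Mino replicate 2 did not follow minocycline. Its level did not follow Xist there, which was high in replicate 3 of both groups, at 143 and 0 counts of Gm21093. When only autosomal and mitochondrial genes entered the fit and the adjustment, its adjusted p was 0.0596 and no gene was called. Prn, a readthrough transcript of the prion protein gene Prnp that overlaps it and Prnd, was also singled out after its values were seen. It had no count in the 3 IgG libraries and 48, 25 and 26 counts in the IgG+Mino libraries, at least 11.4-fold higher against the same floor, and did not pass (adjusted p = 0.0855).

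Below, each gene is given by its CPM in replicates 1, 2 and 3 of each group and by its log2 fold change ± SE, the SE being from the spread between the 3 libraries a side. Of the genes given this way edgeR's adjusted p was 0.304 for Dscaml1, 0.341 for Abcb1a and at least 0.585 for all others, so that none passed. The gene lists used below were chosen with earlier results of these data known. The shares of their members set beside the shares of all genes therefore describe the lists and do not test them.

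Mitochondrially encoded genes gave the clearest group pattern. Of the 13 protein genes of the mitochondrial genome, all of which were tested, 12 had a positive log2 fold change and 11 (84.6%) had an unadjusted p under 0.05, against 4.99% of all genes tested. For 9 of the 13 the groups did not overlap, against 7.12% of all genes. The median of the 13 was 0.68 beside -0.01 over all genes, but none was called, the smallest adjusted p being 0.585. The share of all counts that came from mitochondrial genes was 3.55%, 3.89% and 5.19% in IgG and 5.38%, 5.97% and 6.06% in IgG+Mino. The highest IgG library, replicate 3, lay just under the lowest IgG+Mino library, replicate 1, and the means were 4.21% ± 0.864 and 5.80% ± 0.367 (SD, n = 3 each; exact two-sided permutation p = 0.1, the smallest that 3 against 3 libraries can give). In APB5 retinas this share was 5.96%, 4.19% and 4.74%, and in APB5+Mino retinas 6.63%, 6.11% and 6.05%, so there too the groups did not overlap.

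Among subunits of complex I, the entry point of electrons from NADH, mt-Nd5 was at 1034, 1307 and 2032 CPM in IgG and 2049, 3839 and 3952 CPM in IgG+Mino (log2 fold change 1.17 ± 0.42). Its 3 IgG+Mino libraries all lay above the IgG libraries, with replicate 1 only just above IgG replicate 3. mt-Nd2 was at 1590.0, 1810.2 and 2347 CPM in IgG and 2402, 3294 and 3484 CPM in IgG+Mino (log2 fold change 0.68 ± 0.23), and mt-Nd4 at 1804, 2237 and 3757 CPM in IgG and 3905, 5572 and 5682 CPM in IgG+Mino (log2 fold change 0.96 ± 0.36). In both genes IgG+Mino replicates 2 and 3 were the highest and IgG replicate 3 was close to IgG+Mino replicate 1. mt-Nd1 was at 3067, 3564 and 4862 CPM in IgG and 5316, 5543 and 6026 CPM in IgG+Mino (log2 fold change 0.55 ± 0.20). mt-Nd3 was the gene with the tightest replicates, at 630.0, 630.1 and 643 CPM in IgG and 800.5, 796 and 877 CPM in IgG+Mino (log2 fold change 0.38 ± 0.05). Its groups did not overlap, and the 3 IgG libraries differed little from each other. mt-Nd6, the only protein gene on the light strand, stood apart from the rest at 30.1, 18.6 and 16.2 CPM in IgG and 14.4, 13.2 and 20.4 CPM in IgG+Mino (log2 fold change -0.44 ± 0.33), and its groups overlapped.

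The 3 catalytic subunits of complex IV, cytochrome c oxidase, had smaller differences. mt-Co1 was at 8679, 9973 and 13639 CPM in IgG and 13646, 15181 and 15594 CPM in IgG+Mino (log2 fold change 0.46 ± 0.20), and all IgG+Mino libraries lay above the IgG libraries, replicate 1 by a narrow margin. mt-Co2 and mt-Co3 had log2 fold changes of 0.21 and 0.30, with overlapping groups for mt-Co2. mt-Cytb, the mitochondrially encoded subunit of complex III, was at 3220.3, 3811 and 6743 CPM in IgG and 6652, 7651 and 7833 CPM in IgG+Mino (log2 fold change 0.68 ± 0.33), and IgG replicate 3 again reached the range of the IgG+Mino libraries. mt-Atp6, a subunit of the proton channel of ATP synthase, was at 1780.3, 1969 and 3306 CPM in IgG and 3524, 3956 and 4016 CPM in IgG+Mino (log2 fold change 0.70 ± 0.28), with IgG replicate 3 next to IgG+Mino replicate 1. Without IgG replicate 3, mt-Cytb and mt-Atp6 were called, with log2 fold changes of 1.07 and 1.03 (adjusted p = 0.0200 and 0.0133).

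**Figure D2:**
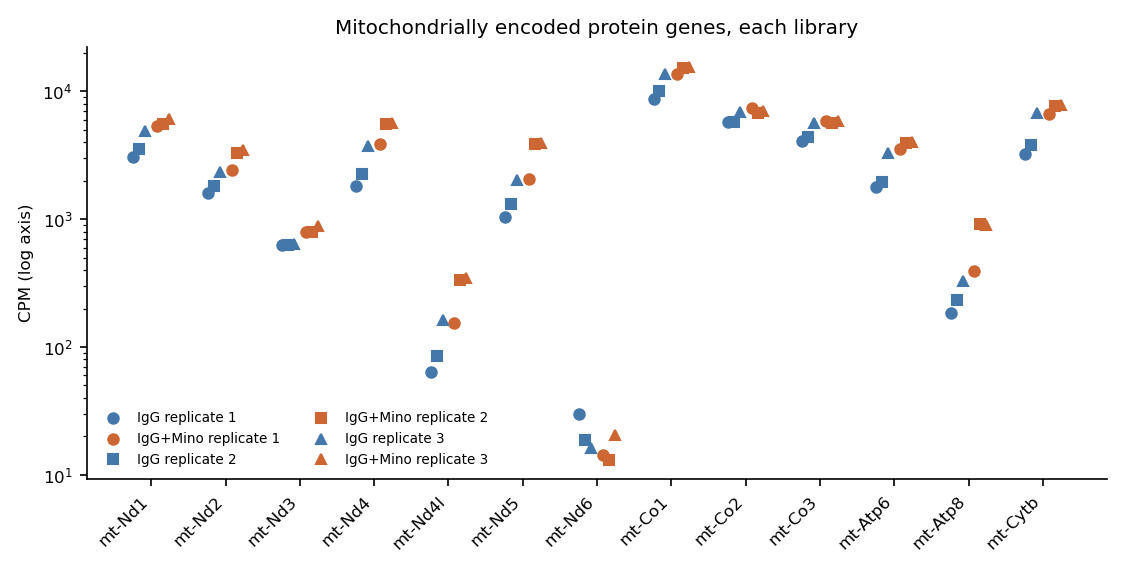
CPM, on a log axis, of the 13 mitochondrially encoded protein genes in each IgG (blue) and IgG+Mino (orange) library, with 1 symbol for each replicate number. In every gene but mt-Nd6 the 3 orange points lie above at least 2 of the 3 blue ones, and the highest blue point is IgG replicate 3 in 12 of the 13 genes.

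The 2 shortest members of the group, mt-Atp8 and mt-Nd4l, had the largest log2 fold changes, and their sequences bear on what the counts can mean. mt-Atp8, a subunit of the membrane part of ATP synthase (chrM:7766-7969, plus strand, GRCm39), was at 185, 233 and 329 CPM in IgG and 395, 911 and 905 CPM in IgG+Mino (log2 fold change 1.56 ± 0.47), with IgG+Mino replicates 2 and 3 well above replicate 1. mt-Nd4l, a membrane subunit of complex I (chrM:9877-10173, plus strand), was at 63.4, 85.2 and 162 CPM in IgG and 153, 332 and 347 CPM in IgG+Mino (log2 fold change 1.42 ± 0.55), and here IgG+Mino replicate 1 lay below IgG replicate 3. In mt-Atp8, capitals mark the last 43 bases, which the gene shares with the start of mt-Atp6. In mt-Nd4l, capitals mark the only 3 bases that are not also present in Gm10222, an annotated pseudogene at chr1:24651488-24651781 on the minus strand whose 294 bases match mt-Nd4l with 0 mismatches.
mt-Atp8: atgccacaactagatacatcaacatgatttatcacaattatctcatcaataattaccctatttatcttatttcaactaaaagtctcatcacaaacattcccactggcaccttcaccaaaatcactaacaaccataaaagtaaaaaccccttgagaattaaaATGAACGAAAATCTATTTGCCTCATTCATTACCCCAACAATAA
mt-Nd4l: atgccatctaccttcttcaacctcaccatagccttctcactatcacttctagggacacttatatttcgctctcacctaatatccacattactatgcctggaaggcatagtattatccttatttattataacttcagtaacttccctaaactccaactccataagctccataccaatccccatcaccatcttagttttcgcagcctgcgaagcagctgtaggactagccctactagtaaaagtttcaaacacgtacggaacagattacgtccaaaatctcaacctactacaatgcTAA

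A single-end read of 50 cycles cannot distinguish such copies. Gm10222 had 3247, 4278 and 5597 counts in IgG and 6852, 16302 and 16448 in IgG+Mino (log2 fold change 1.65 ± 0.47, adjusted p = 0.585), and it held 37.0% to 46.9% of the summed counts of mt-Nd4l and Gm10222 across the 6 libraries. Summed over both, the level was 119, 159 and 257 CPM in IgG and 276, 616 and 649 CPM in IgG+Mino, so that the groups no longer overlapped. Gm10222 lies in a stretch of 4650 bases, chr1:24650616-24655265, in which 98.0% of the 50-base windows are identical to the mitochondrial genome between positions 6394 and 11042. Accordingly, all windows of mt-Co2, mt-Atp8, mt-Atp6, mt-Co3 and mt-Nd4l, 99.0% of those of mt-Nd3, 62.2% of those of mt-Nd4 and 51.1% of those of mt-Co1 also occur in the nuclear genome. The genes with no such window, mt-Nd1, mt-Nd6 and mt-Cytb, and those with few, mt-Nd2 (8.29%) and mt-Nd5 (7.61%), include both the positive and the negative log2 fold changes given above. The mitochondrial ribosomal RNAs mt-Rnr1 and mt-Rnr2, which poly-A selection captures poorly, had log2 fold changes of 0.03 ± 0.17 and 0.27 ± 0.13 (SE). In the APB5 pair, the 13 protein genes had a median of 0.31, and mt-Nd4l was called higher there (log2 fold change 1.30, adjusted p = 0.0476), where 0.818% of all genes were. With the Xist level as a covariate over all 12 libraries, the median of the 13 genes in IgG retinas was 0.36 with 12 positive values, and 2 of the 13 had an unadjusted p under 0.05 in place of 11. With high or low Xist the median was 0.37 and none had such a p.

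Nuclear-encoded mitochondrial genes had small negative values almost throughout. Of the 34 complex I subunits tested, 33 had a negative log2 fold change, with a median of -0.21 and a range of -0.52 to 0.03. The medians were -0.17 for 24 subunits of complexes II to IV, -0.18 for 18 subunits of ATP synthase, -0.19 for 49 proteins of the large and -0.17 for 33 proteins of the small mitochondrial ribosomal subunit, with 21, 15, 44 and 29 negative values in that order. No member was called, and at an unadjusted p under 0.05 the counts of lower genes were 6, 2, 3, 1 and 2, which is 17.6%, 8.33%, 16.7%, 2.04% and 6.06% of each list against 3.35% of all genes tested. Ndufa5, an accessory subunit of complex I, was at 55.0, 51.0 and 59.1 CPM in IgG and 48.5, 31.1 and 35.9 CPM in IgG+Mino (log2 fold change -0.52 ± 0.20). Atp5e, the epsilon subunit of ATP synthase, was at 50.6, 44.6 and 58.6 CPM in IgG and 44.3, 30.3 and 34.2 CPM in IgG+Mino (log2 fold change -0.50 ± 0.20). In both genes IgG+Mino replicates 2 and 3 were low, and replicate 1 lay just below the lowest IgG library. Chchd1, a protein of the small mitochondrial ribosomal subunit, was at 19.9, 18.5 and 21.5 CPM in IgG and 17.1, 12.6 and 13.9 CPM in IgG+Mino (log2 fold change -0.46 ± 0.14). The mean log2 level of the complex I list showed where these differences lie: relative to the mean of the 6 libraries it was at 0.04, -0.01 and 0.31 in IgG and at 0.12, -0.28 and -0.18 in IgG+Mino. IgG+Mino replicate 1 thus lay above IgG replicates 1 and 2. The libraries that were low and high here are those of the exon-length trend, and the median summed exon length of these 5 lists was 3699.5 to 4431 bases, and its part in these values was not tested. Without IgG+Mino replicate 1 the medians of the 5 lists were -0.34, -0.32, -0.31, -0.34 and -0.30, and without replicate 2 they were -0.14, -0.08, -0.09, -0.12 and -0.11.

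Genes that act on mitochondrial gene expression and protein quality did not stand out. For 26 mitochondrial transcription and translation factors the median was -0.11, and for 16 mitochondrial chaperones and proteases -0.13. Lrpprc, which stabilises mitochondrial mRNAs, was at 99.8, 95.0 and 87.7 CPM in IgG and 85.2, 80.7 and 76.9 CPM in IgG+Mino (log2 fold change -0.22 ± 0.07), and all IgG+Mino libraries lay below the IgG libraries. Its partner Slirp was at 25.1, 22.9 and 28.6 CPM in IgG and 23.5, 16.8 and 20.3 CPM in IgG+Mino (log2 fold change -0.34 ± 0.17). Hspd1, the mitochondrial chaperonin, had a log2 fold change of -0.21 ± 0.08. In the APB5 pair the nuclear lists had medians of -0.53 for complex I, -0.51 for complexes II to IV, -0.58 for ATP synthase, -0.22 and -0.33 for the large and small ribosomal subunits and 0.16 for the transcription and translation factors.

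The stress programs had medians close to that of all genes. Of 32 tested genes of the integrated stress response, which slows translation and raises amino acid and redox genes through Atf4, 12 had positive and 20 negative values with a median of -0.08, and none reached an unadjusted p of 0.05. Atf4 itself was at 538, 494 and 458 CPM in IgG and 498, 392 and 428 CPM in IgG+Mino (log2 fold change -0.18 ± 0.12). Ddit3, its pro-apoptotic target, was at 63.6, 60.7 and 61.5 CPM in IgG and 75.3, 52.3 and 55.4 CPM in IgG+Mino (log2 fold change -0.02 ± 0.16), and Trib3, another target, had a log2 fold change of -0.18 ± 0.09. The groups overlapped for each of these genes. Gdf15, a secreted marker of mitochondrial stress, was at 0.468 to 0.951 CPM in IgG and 0.322 to 0.404 CPM in IgG+Mino (log2 fold change -0.72 ± 0.32), so that its IgG+Mino libraries all lay below the IgG ones at low counts. Fgf21, the other secreted marker on the list, was filtered out for low counts.

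None of the genes of the other stress lists was called. Medians were -0.11 for 16 genes of endoplasmic reticulum stress, -0.09 for 20 heat shock genes, 0.06 for 20 oxidative stress genes, 0.03 for 14 genes of p53 and senescence and -0.07 for 20 immediate early genes. Hspa5, the chaperone of the endoplasmic reticulum, had a log2 fold change of -0.16 ± 0.18, and Hsp90b1, its partner there, was at 563, 577 and 617 CPM in IgG and 520.3, 439 and 478 CPM in IgG+Mino (log2 fold change -0.29 ± 0.08). Bag3, a co-chaperone of Hsp70, was at 13.4, 14.1 and 11.8 CPM in IgG and 18.7, 16.0 and 22.5 CPM in IgG+Mino (log2 fold change 0.54 ± 0.16), all IgG+Mino libraries above the IgG ones. It was the only one of the 20 heat shock genes with the groups apart on that side, and 6 had them apart on the lower side, against 7.37% of all genes. Those 6 were Hsp90aa1, Hsp90ab1, Dnaja1, Hspa4, Chordc1 and Ahsa1, cytosolic chaperones and co-chaperones with log2 fold changes of -0.36 to -0.10, singled out after their values were seen. The median of the list was 0.03 without IgG replicate 3.

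Among antioxidant genes, Txnrd1, a thioredoxin reductase, was at 39.9, 45.6 and 40.2 CPM in IgG and 50.4, 48.7 and 55.7 CPM in IgG+Mino (log2 fold change 0.30 ± 0.09), whereas Sod1, the cytosolic superoxide dismutase, was at 139, 129 and 144 CPM in IgG and 126, 88.8 and 102 CPM in IgG+Mino (log2 fold change -0.38 ± 0.15). Neither pair of groups overlapped. Mdm2, the p53 target that restrains p53, was at 62.0, 64.4 and 62.6 CPM in IgG and 78.0, 80.3 and 78.4 CPM in IgG+Mino (log2 fold change 0.33 ± 0.02), with the 3 libraries of each group close together. Cdkn1a, the cell cycle inhibitor downstream of p53, was at 15.8, 16.7 and 20.8 CPM in IgG and 31.3, 18.8 and 28.2 CPM in IgG+Mino (log2 fold change 0.55 ± 0.26), with overlapping groups.

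Immediate early genes were uneven within both groups. Fos was at 50.6, 56.4 and 290.3 CPM in IgG and 48.3, 182 and 89.2 CPM in IgG+Mino, the highest value being IgG replicate 3 and the next IgG+Mino replicate 2 (log2 fold change -0.31 ± 0.99). Nr4a3, an orphan nuclear receptor of this class, was at 12, 12.1 and 4.01 CPM in IgG and 15.0, 21.2 and 31.6 CPM in IgG+Mino (log2 fold change 1.27 ± 0.61), and here IgG replicate 3 was the lowest. Without it, the median of the list went from -0.07 to 0.52. Gliosis genes, which report on reactive Muller glia and astrocytes, had a median of 0.02 over 24 genes, none of them at an unadjusted p under 0.05. Gfap, the intermediate filament of reactive glia, was at 51.9, 52.4 and 45.5 CPM in IgG and 49.4, 40.4 and 55.5 CPM in IgG+Mino (log2 fold change -0.04 ± 0.15), and its groups overlapped fully. Between APB5+Mino and APB5 the immediate early list had a median of -2.24 with 7 genes called lower and the gliosis list -1.77 with 3 called lower, against 0.844% of all genes there. The APB5 libraries were uneven, Gfap being at 441 ± 522 CPM in them (SD, n = 3).

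Microglial genes were mostly at lower CPM in IgG+Mino without passing the test. Of 18 homeostatic microglia genes tested, 14 were negative with a median of -0.55, and 7 (38.9%) had an unadjusted p under 0.05 on the lower side, against 3.35% of all genes. Of 15 genes of complement and immune sensing, 14 were negative with a median of -0.60, and 6 (40%) had such a p. Groups did not overlap on the lower side for 6 of 18 and 4 of 15 members of these lists, against 7.37% of all genes. On the higher side this held for 1 and 0 members, against 7.12%. The smallest adjusted p in either list was 0.585. The summed CPM of the homeostatic list was 351 to 476 in IgG and 396 to 492 in IgG+Mino. That of the complement list was 45.5 to 70.9 in IgG and 37.8 to 40.9 in IgG+Mino. IgG replicate 3 weighed on both lists, whose medians were -0.28 and -0.27 without it. Relative to the mean of the 6 libraries, the mean log2 level of the homeostatic list was at -0.08, 0.13 and 0.41 in IgG. It was at -0.33, -0.05 and -0.07 in IgG+Mino, so the groups overlapped. That of the complement list was at -0.08, 0.19 and 0.48 in IgG and at -0.26, -0.15 and -0.18 in IgG+Mino, without overlap. The median summed exon lengths of these lists were 4808 and 4141 bases, and the part of exon length was not tested. Cx3cr1, the fractalkine receptor of microglia, was at 2.57, 2.31 and 4.92 CPM in IgG and 1.16, 2.07 and 1.36 CPM in IgG+Mino (log2 fold change -1.08 ± 0.42). Aif1, which encodes the microglial protein Iba1, was at 0.397, 0.936 and 0.611 CPM in IgG and 0.268, 0.261 and 0.294 CPM in IgG+Mino (log2 fold change -1.14 ± 0.34). Both genes had every IgG+Mino library below every IgG library. The defining genes P2ry12 and Tmem119, a purinergic receptor and a membrane protein restricted to microglia in the nervous system, were less clear. P2ry12 was at 1.21, 1.51 and 2.60 CPM in IgG and 0.822, 1.58 and 1.16 CPM in IgG+Mino (log2 fold change -0.56 ± 0.42) and Tmem119 at 1.38, 1.49 and 3.23 CPM in IgG and 1.18, 1.29 and 1.65 CPM in IgG+Mino (log2 fold change -0.55 ± 0.41). In both, IgG replicate 3 was high and the other two IgG libraries lay within the range of the IgG+Mino libraries. Csf1r, the receptor for the survival factor of microglia, was at 6.67, 10.2 and 12.8 CPM in IgG and 5.43, 7.37 and 6.59 CPM in IgG+Mino (log2 fold change -0.61 ± 0.30), with IgG replicate 1 inside the IgG+Mino range.

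Genes for phagocytosis and complement followed the same order. Ctss, the lysosomal cathepsin S, was at 11.8, 13.2 and 16.4 CPM in IgG and 7.52, 8.43 and 8.85 CPM in IgG+Mino (log2 fold change -0.74 ± 0.15). Fcgr2b, the inhibitory Fc receptor for IgG, was at 0.638, 0.520 and 0.645 CPM in IgG and 0.268, 0.122 and 0.239 CPM in IgG+Mino (log2 fold change -1.38 ± 0.31). C1qb, a chain of the first complement component, was at 5.72, 7.45 and 9.22 CPM in IgG and 5.52, 5.10 and 5.25 CPM in IgG+Mino (log2 fold change -0.49 ± 0.20), and the other chains C1qa and C1qc had log2 fold changes of -0.37 and -0.66. The groups of Ctss, Fcgr2b and C1qb did not overlap. C3, the central complement component, stood on the other side with a log2 fold change of 0.30.

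Lists of activated myeloid states had smaller values. The median was -0.19 for 20 disease-associated microglia genes, -0.10 for 10 inflammatory mediators and -0.08 for 19 interferon response genes. On the lower side 2, 1 and 0 of them had an unadjusted p under 0.05, which is 10%, 10% and 0% against 3.35% of all genes. Single libraries moved all 3 medians, and the mean log2 levels of all 3 lists overlapped between the groups. That of the disease-associated list was -0.09 without IgG replicate 2 or 3. That of the inflammatory mediators ranged from -0.28 without IgG+Mino replicate 1 to 0.09 without IgG+Mino replicate 3, and that of the interferon genes from -0.26 without IgG+Mino replicate 2 to 0.12 without IgG replicate 3. Apoe, a lipid carrier made by Muller glia as well as by activated microglia, was at 723, 865 and 956 CPM in IgG and 582, 533 and 634 CPM in IgG+Mino (log2 fold change -0.54 ± 0.14), with no overlap; it is also on the Muller glia list. Lyz2, the myeloid lysozyme, was at 1.19, 1.91 and 1.85 CPM in IgG and 0.536, 0.836 and 1.23 CPM in IgG+Mino (log2 fold change -0.90 ± 0.40). Il18, an inflammasome cytokine, was at 7.62, 6.66 and 8.25 CPM in IgG and 5.97, 6.02 and 4.74 CPM in IgG+Mino (log2 fold change -0.43 ± 0.14). Several inflammatory mediators were hardly detected, and 10 of the 20 on the list were tested. Ccl2, Il1b and Tnf had at most 13, 9 and 3 counts in any of the 6 libraries and were not tested. Nor was Casp1, the inflammasome protease, with 4, 9 and 10 counts in IgG and 2, 3 and 1 in IgG+Mino. Tspo, the mitochondrial outer membrane protein used to image activated microglia, had 198, 189 and 247 counts in IgG and 156, 174 and 204 in IgG+Mino (log2 fold change -0.19), and the groups overlapped.

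Of 14 genes of perivascular and infiltrating macrophages 8 were tested, 7 of them negative, with a median of -0.66, and of -1.19 without IgG+Mino replicate 3. The mean log2 level of this list overlapped between the groups. Mrc1, the mannose receptor of perivascular macrophages, was at 0.466, 0.919 and 0.866 CPM in IgG and 0.0357, 0.0871 and 0.330 CPM in IgG+Mino (log2 fold change -2.08 ± 0.76), so all IgG+Mino libraries lay below the IgG libraries at a level under 1 CPM. In the APB5 pair the medians of the homeostatic, complement, disease-associated, inflammatory, perivascular and interferon lists were -1.54, -3.28, -1.78, -1.90, -3.40 and -1.36. The APB5 libraries were uneven in these genes, with Lyz2 at 55.1 ± 83.2, C1qb at 36.7 ± 47.2 and Cx3cr1 at 4.89 ± 3.49 CPM there (SD, n = 3). The direction of the microglial lists in IgG retinas depended on whether a sex term was fitted and on whether APB5 replicate 3 was kept. When the 12 libraries were fitted together with Xist level as a term, the medians were 0.39 for the homeostatic and 1.03 for the complement list. All 15 members of the latter were positive. With high or low Xist as the term over the same 12 libraries, the medians of the homeostatic and complement lists were 0.50 and 1.24. A covariate of high or low Xist without APB5 replicate 3, the only APB5 library with high Xist, gave -0.37 and -0.69, and its sex term rested on 1 library of the APB5 groups, APB5+Mino replicate 3.

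**Figure D3:**
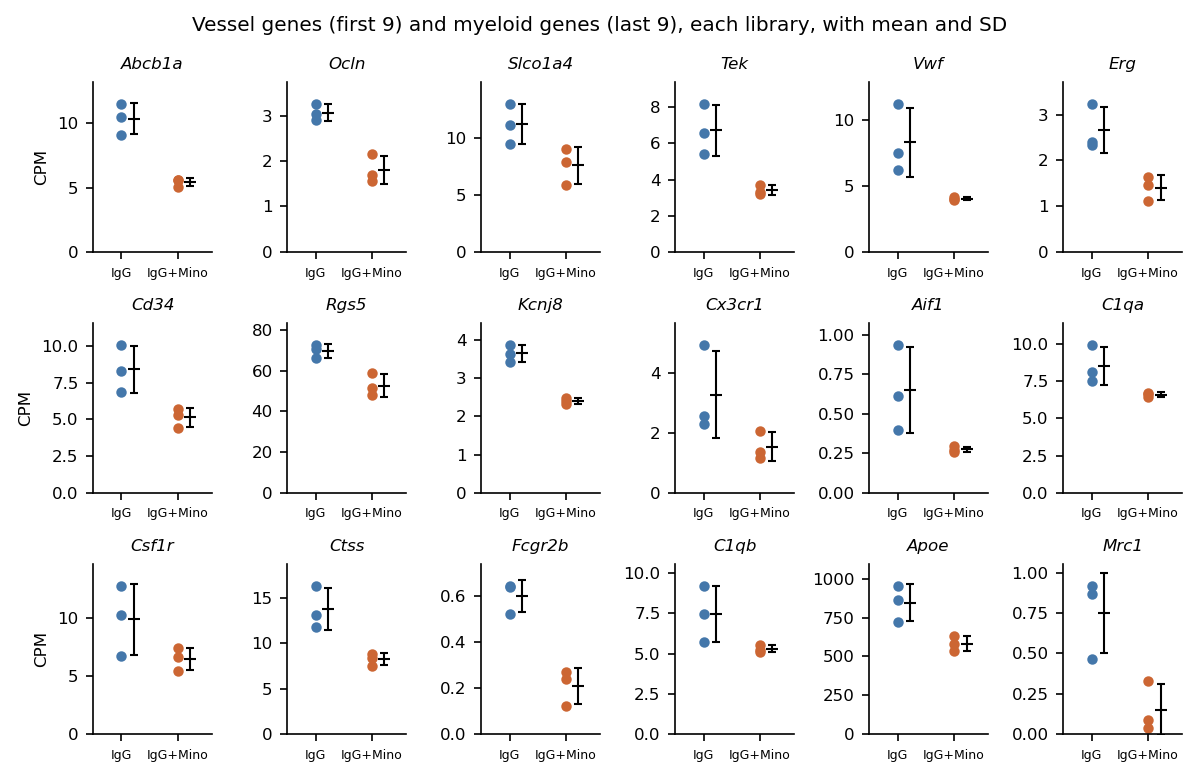
CPM of 9 vessel genes and 9 myeloid genes in each IgG (blue) and IgG+Mino (orange) library, with the mean and SD (n = 3) in black and every axis starting at 0. The panels were chosen among the genes of small p in their lists, so that the lack of overlap in all panels but Csf1r follows from the choice, against 7.37% of all genes with groups apart on the lower side, and none of the genes passed the adjusted test.

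Endothelial genes formed the other group at lower CPM. Of 22 endothelial identity genes, all tested, 21 had a negative log2 fold change with a median of -0.44, 9 (40.9%) had an unadjusted p under 0.05 on the lower side, and for 9 the groups did not overlap, against 3.35% and 7.37% of all genes. None was called. Tek, the angiopoietin receptor Tie2, was at 5.40, 6.60 and 8.20 CPM in IgG and 3.32, 3.20 and 3.71 CPM in IgG+Mino (log2 fold change -0.97 ± 0.18). Vwf, the von Willebrand factor, was at 6.24, 7.51 and 11.3 CPM in IgG and 3.95, 4.04 and 4.15 CPM in IgG+Mino (log2 fold change -1.04 ± 0.25). Both had their 3 IgG+Mino libraries within a narrow range below all IgG libraries, and IgG replicate 3 was the highest. The endothelial transcription factor Erg was at 2.34, 3.24 and 2.41 CPM in IgG and 1.64, 1.11 and 1.47 CPM in IgG+Mino (log2 fold change -0.90 ± 0.22), and Cd34, a sialomucin of the endothelial surface, at 6.86, 8.29 and 10.1 CPM in IgG and 5.68, 4.44 and 5.30 CPM in IgG+Mino (log2 fold change -0.71 ± 0.19). The junctional genes that define the cell type differed less. Pecam1 was at 13.2, 15.4 and 12.1 CPM in IgG and 13.1, 9.30 and 10.1 CPM in IgG+Mino (log2 fold change -0.32 ± 0.18), and Cdh5, VE-cadherin, at 4.31, 5.39 and 7.06 CPM in IgG and 5.02, 5.48 and 5.71 CPM in IgG+Mino (log2 fold change -0.05 ± 0.21), with overlapping groups in both. Relative to the mean of the 6 libraries, the mean log2 level of the list was at 0.02, 0.17 and 0.38 in IgG and at -0.12, -0.28 and -0.17 in IgG+Mino, so the groups did not overlap. Its median summed exon length was 6301 bases, in the middle bin, where the median over all genes of the bin was -0.01. The part of exon length in the values of this list was not tested. With the Xist level as a covariate over 12 libraries the median of the list was -0.10, and with high or low Xist but without APB5 replicate 3 it was -0.41.

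Genes of the blood-retina barrier were mixed, with 9 of 24 positive, 15 negative and a median of -0.12. Abcb1a, the P-glycoprotein drug efflux pump of barrier endothelium, had the smallest p among all genes that were lower in IgG+Mino with a mean of at least 1 CPM. It was at 9.09, 10.5 and 11.5 CPM in IgG and 5.06, 5.62 and 5.56 CPM in IgG+Mino (log2 fold change -0.93 ± 0.11), and every IgG+Mino library was below every IgG library by more than the spread within either group. The tight junction protein occludin, Ocln, was at 3.03, 2.90 and 3.26 CPM in IgG and 1.70, 1.57 and 2.15 CPM in IgG+Mino (log2 fold change -0.75 ± 0.14), and the organic anion transporter Slco1a4 at 9.50, 11.1 and 13.04 CPM in IgG and 5.86, 9.07 and 7.91 CPM in IgG+Mino (log2 fold change -0.56 ± 0.23). Their groups did not overlap. Claudin-5, Cldn5, did not follow, at 10.4, 10.7 and 21.98 CPM in IgG and 12.6, 11.1 and 10.9 CPM in IgG+Mino (log2 fold change -0.32 ± 0.36), and Fzd4, the receptor for norrin, was on the other side at 31.2, 29.5 and 23.2 CPM in IgG and 29.9, 47.6 and 41.2 CPM in IgG+Mino (log2 fold change 0.50 ± 0.24).

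Pericyte genes were examined because APB5 blocks the recruitment of pericytes, which the IgG groups keep. Their RNA was not uniformly lower in APB5 at day 28. With CPM scaled within each pair (SD, n = 3), Rgs5 was at 115 ± 44.8 in APB5 and 69.8 ± 3.39 in IgG. Kcnj8 was at 2.64 ± 0.52 in APB5 and 3.65 ± 0.22 in IgG. Pdgfrb, the target of APB5, was at 13.4, 12.7 and 19.7 CPM in IgG and 15.1, 18.2 and 14.6 CPM in IgG+Mino (log2 fold change 0.06 ± 0.22), and Cspg4, the NG2 proteoglycan, had a log2 fold change of -0.03 ± 0.27. Rgs5, a G-protein regulator of pericytes, was at 66.1, 70.6 and 72.7 CPM in IgG and 48.0, 51.3 and 58.7 CPM in IgG+Mino (log2 fold change -0.41 ± 0.09), and Kcnj8, a subunit of their ATP-sensitive potassium channel, at 3.43, 3.64 and 3.87 CPM in IgG and 2.41, 2.32 and 2.48 CPM in IgG+Mino (log2 fold change -0.60 ± 0.06). The groups overlapped for Pdgfrb and not for Rgs5 or Kcnj8, and the median over 17 pericyte genes was -0.13, with a range of -0.24 to -0.05 when single libraries were left out. Smooth muscle genes had a median of -0.22 over 12 tested, which was -0.11 without IgG replicate 2 and -0.08 without IgG+Mino replicate 2, and Acta2, smooth muscle actin, a log2 fold change of -0.20.

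Growth factors and signs of vessel activation were near the median of all genes. Medians were -0.05 for 26 angiogenic ligands and receptors, 0.06 for 11 genes of endothelial activation, 0.02 for 24 hypoxia targets and -0.06 for 23 genes of the vascular matrix. Vegfa was at 159.7, 151 and 174 CPM in IgG and 151, 169 and 131 CPM in IgG+Mino (log2 fold change -0.10 ± 0.12), Angpt2, the angiopoietin that destabilises vessels, at 4.21, 4.68 and 4.86 CPM in IgG and 4.70, 3.59 and 4.48 CPM in IgG+Mino (log2 fold change -0.11 ± 0.13), and both had overlapping groups. Pdgfb, the endothelial ligand that recruits pericytes, was at 2.53, 2.67 and 3.63 CPM in IgG and 2.48, 1.13 and 1.19 CPM in IgG+Mino (log2 fold change -0.86 ± 0.39), and Edn3, an endothelin, at 1.36, 2.17 and 1.26 CPM in IgG and 0.214, 0.557 and 1.08 CPM in IgG+Mino (log2 fold change -1.32 ± 0.67). The IgG+Mino libraries of both lay below the IgG libraries. Of the other genes of this kind that the study discusses, Pgf, Sema3g, Ndufa4l2, Stat3, C4b, Cfi, Lgals3 and Nos2 had log2 fold changes of -0.42 to 0.28, none with an unadjusted p under 0.05, and Actg2 had at most 5 counts in any of the 6 libraries and was not tested. Fgf2, Edn2 and Icam1, factors linked to retinal stress and leukocyte adhesion, had log2 fold changes of 0.14, 0.02 and 0.29, with groups that overlapped. For APB5+Mino over APB5, endothelial identity had a median of -0.82 with 3 genes called lower, pericyte genes -0.85 with 2, endothelial activation -1.10 with 1, angiogenic genes -0.57 with 3, the blood-retina barrier -0.35 with 1 and the vascular matrix -1.28 with 1, against 0.844% of all genes there. No smooth muscle or hypoxia gene was called lower in that pair. Its APB5 libraries were uneven in some of these genes, with Col1a1, of the vascular matrix, at 104 ± 173 CPM (SD, n = 3).

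**Figure D4:**
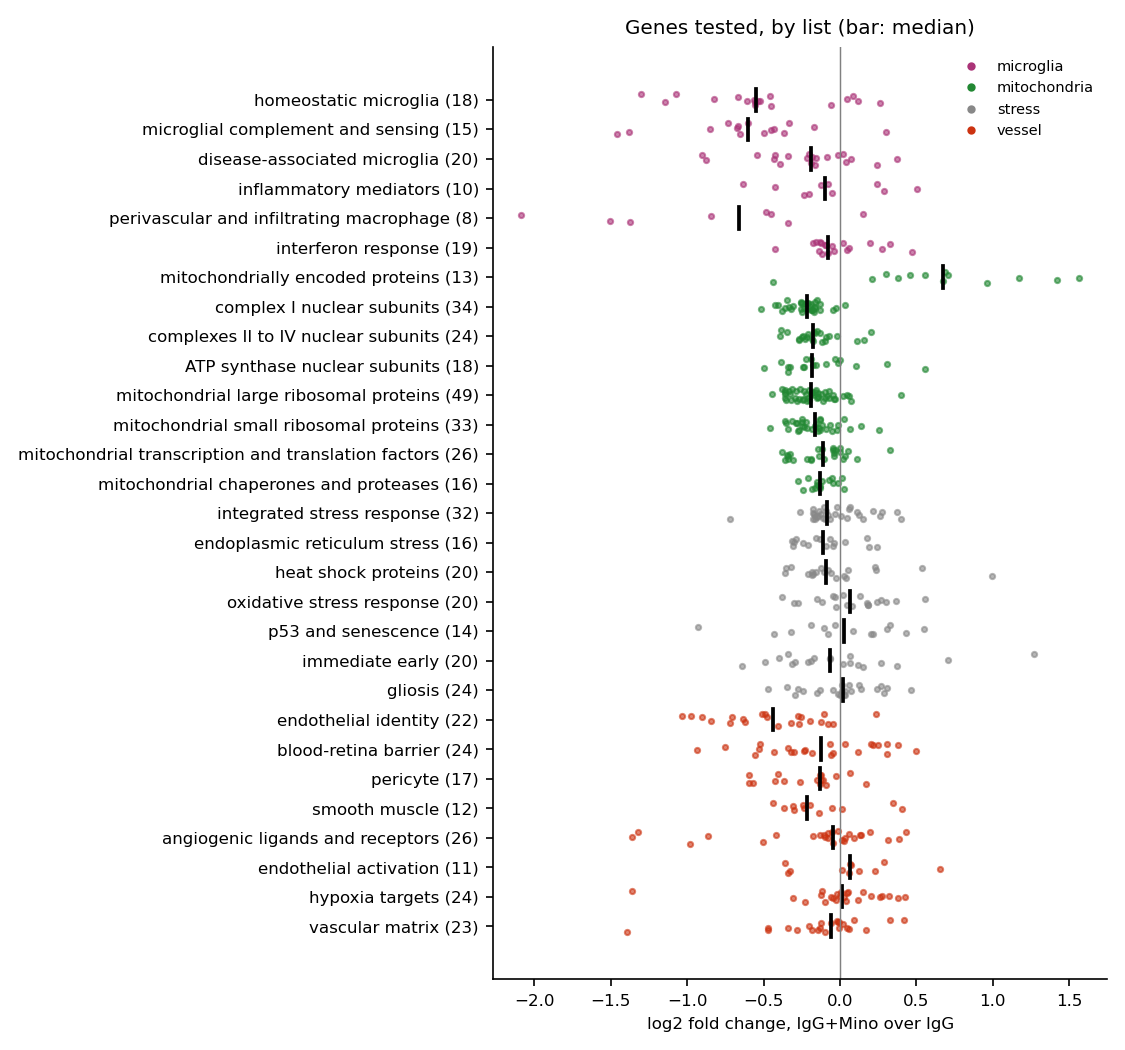
Log2 fold change of IgG+Mino over IgG for each tested gene of the 29 lists of the microglia, mitochondria, stress and vessel programs, with the number of genes in parentheses and the median as a black bar. The mitochondrially encoded genes lie to the right with a median of 0.68, the homeostatic, complement and endothelial identity lists lie to the left at -0.55, -0.60 and -0.44, and the stress lists are centred between -0.11 and 0.06.

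Set side by side, the 2 comparisons of minocycline with no minocycline used different animals and antibodies. Sex differs between the groups of the IgG comparison and is balanced in the APB5 comparison, so the difference between the 2 comparisons is also one of sex. The test of the difference between them, the interaction of antibody and minocycline over all 12 libraries, called 3 of 20064 genes (0.015%), none of them in the mitochondrially encoded, endothelial identity or homeostatic microglia lists. These were Glycam1, Fgf2os and Lad1, an endothelial sialomucin, an antisense transcript of Fgf2 and a basement membrane protein. Lad1, for example, was at 2.67 ± 0.10 CPM in IgG, 3.48 ± 0.60 in IgG+Mino, 14.8 ± 4.90 in APB5 and 2.67 ± 0.49 in APB5+Mino (SD, n = 3 each), with an interaction of 2.82 on the log2 scale (adjusted p = 0.0225). Its IgG groups differed little beside the APB5 ones.

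**Figure D5:**
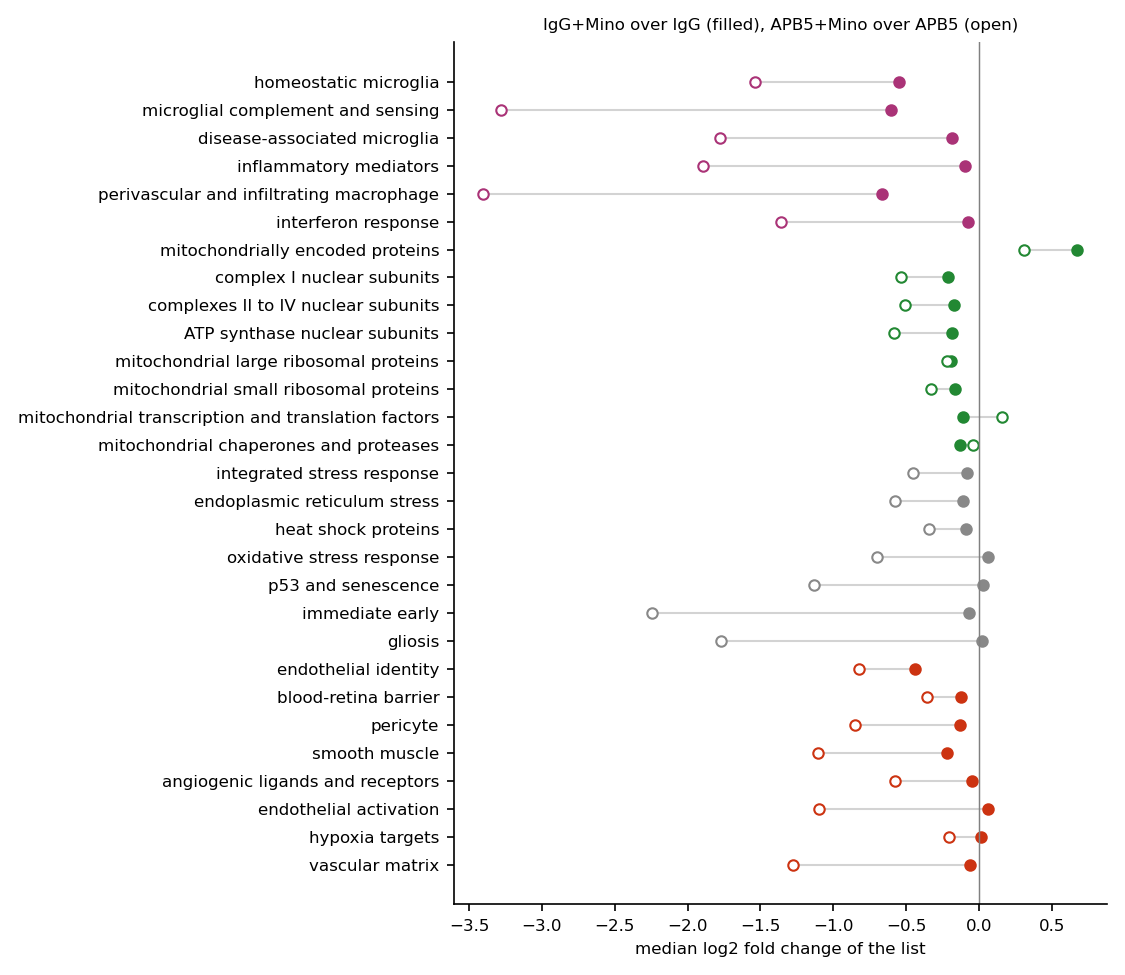
Median log2 fold change in the 2 pairs of each of the 29 lists of the microglia, mitochondria, stress and vessel programs, IgG+Mino over IgG as filled and APB5+Mino over APB5 as open circles, joined by a grey line; the pairs share no library. The filled circles lie between -0.66 and 0.68 and the open ones between -3.40 and 0.31, and of these 29 lists the mitochondrially encoded one is the only one above 0.2 in both. Some genes behind the open circles were uneven within APB5, such as Lyz2 at 55.1 ± 83.2 CPM (SD, n = 3).

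The genes with the smallest p that met the other conditions for being named (mean of at least 1 CPM and groups that do not overlap) did not pass the test. On the higher side they began with Dscaml1, a cell adhesion molecule of retinal neurons, at 184, 211 and 188 CPM in IgG and 295, 318 and 313 CPM in IgG+Mino (log2 fold change 0.67 ± 0.07). Nfic, a transcription factor, was at 181, 203 and 199 CPM in IgG and 266, 390.5 and 355 CPM in IgG+Mino (log2 fold change 0.79 ± 0.18), and Zfp385b, a zinc finger protein, at 72.1, 82.2 and 75.5 CPM in IgG and 107, 119 and 116 CPM in IgG+Mino (log2 fold change 0.58 ± 0.07). Gm10222, Hydin, mt-Atp8, Sumo2, Ripor1, Gm4521 and Frmpd1 completed the 10, with log2 fold changes of 0.51 to 1.65. In each of the 3 genes given by library, IgG+Mino replicate 1 was the lowest of its group. On the lower side, Abcb1a was followed by Mecom, Tek, Cavin2, She, Adgrf5, Vwf, Col9a2, Mgp and Cox7c-ps1, with log2 fold changes of -1.41 to -0.64. Mecom, a zinc finger transcription factor of endothelium, was at 1.83, 2.27 and 1.75 CPM in IgG and 0.590, 0.592 and 0.954 CPM in IgG+Mino (log2 fold change -1.41 ± 0.25), Cavin2, a caveolar coat protein, at 4.41, 5.86 and 4.06 CPM in IgG and 1.82, 1.98 and 2.79 CPM in IgG+Mino (log2 fold change -1.11 ± 0.24), and Adgrf5, an adhesion receptor of endothelium, at 11.8, 12.9 and 13.3 CPM in IgG and 7.52, 7.63 and 8.66 CPM in IgG+Mino (log2 fold change -0.67 ± 0.08). Of these 3 genes none is on the endothelial identity list, whereas Tek and Vwf are.

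Neuronal and glial genes gave a reference for these sizes. The medians were 0.04 for 18 rod genes, -0.14 for 12 cone genes, 0.01 for 14 bipolar cell genes, 0.15 for 22 genes of amacrine, horizontal and ganglion cells and 0.05 for 16 Muller glia genes. Rbpms, an RNA-binding protein of ganglion cells, was at 33.7, 35.8 and 33.2 CPM in IgG and 40.7, 44.3 and 50.1 CPM in IgG+Mino (log2 fold change 0.40 ± 0.09), with no overlap, and Kcnj10, the potassium channel of Muller glia, at 56.6, 69.8 and 68.2 CPM in IgG and 71.7, 87.6 and 90.7 CPM in IgG+Mino (log2 fold change 0.36 ± 0.14). Gngt1, the gamma subunit of rod transducin, was at 990.1, 891 and 1256 CPM in IgG and 834, 695 and 725 CPM in IgG+Mino (log2 fold change -0.48 ± 0.17), with no overlap. Clock genes, which follow the time of collection, had a median of 0.11 over 20, with Per1 at 266, 247 and 144 CPM in IgG and 275, 410.5 and 375 CPM in IgG+Mino (log2 fold change 0.69 ± 0.33). Its 3 IgG+Mino libraries lay above the IgG libraries.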

How the data were processed

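RNA was extracted from retinas with the RNeasy micro kit, and poly-A selected stranded libraries were sequenced with single reads of 50 cycles on an Illumina NextSeq. Per the submitters' processing notes, bcl2fastq 2.20 and DRAGEN (version not given) and the mouse build mm39 were used. The deposited table holds whole-number counts per gene for each library, made by the authors without normalisation; whether counting used strand was not given in the sources used here. It has 50559 genes, of which 46143 were autosomal, 37 mitochondrial, 2860 on sex chromosomes and 1519 without a position in the annotation; 19055, 16, 740 and 332 of these passed filterByExpr. Coordinates, exon lengths and sequences are from the GRCm39 genome and its annotation, which is the same build as mm39.

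The 3 IgG+Mino and 3 IgG libraries were compared with edgeR 4.0.16 in R 4.3.3 (TMM scaling, quasi-likelihood test, prior count of 2), and p-values were adjusted by Benjamini-Hochberg over all 20143 genes tested, sex-linked genes included in the fit. CPM are counts scaled to a common library total after TMM scaling. Mean log2 levels of lists used log2(CPM + 0.5). At a depth of at least 54774684 counts per library, counting error is small beside replicate spread only for genes with many counts. For genes of few counts the spread between replicates can lie below counting error, as for Aif1 at 15, 15 and 16 counts in IgG+Mino. The floor of 3 counts per library covers counting error only. The test was checked only on simulated counts, with added changes larger than most given here and without a sex difference or an exon-length trend. That check does not bear on smaller differences. Genes were named by the following rule: the 10 with the smallest p in each direction among those with a mean of at least 1 CPM and groups that do not overlap, up to 4 members of each list by smallest p together with those that define a cell type or pathway, all mitochondrially encoded protein genes, and genes that the study discusses. The members and lists were chosen with earlier results of these data known. Alternatives were other scalings, DESeq2 1.42.0, limma 3.58.1 voom with quality weights, robust estimation, other count filters, a fit of all 12 libraries, a replicate block, Xist as a covariate, adjustment over fewer genes and leaving out each replicate. Sex-linked genes served only to check the libraries. Some members of the lists are not reported here by name.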

Additional observations from a re-analysis of the deposited data

Results flagged for a closer look

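In edgeR's interaction test over all 12 libraries, the difference between minocycline and no minocycline was unlike between the antibody groups for 3 genes. In the IgG pair that difference is also one of sex, so minocycline and sex cannot be told apart in the interaction either. Glycam1 had an interaction of 6.002 on the log2 scale (adjusted p = 0.0156). It had 13, 5 and 28 counts in IgG and 13, 11 and 10 in IgG+Mino, with a log2 fold change of -0.33 in this pair, and it had 264, 262 and 428 counts in APB5 and 2, 2 and 1 in APB5+Mino, with a log2 fold change of -6.34. Fgf2os had an interaction of 5.35 (adjusted p = 0.0225), with 16, 14 and 38 counts in IgG, 46, 54 and 21 in IgG+Mino, 309, 380 and 813 in APB5 and 12, 24 and 16 in APB5+Mino. It lies antisense to Fgf2, and whether counting used strand is not known. Lad1 had an interaction of 2.82 (adjusted p = 0.0225), with 149, 154 and 163 counts in IgG and 177, 239 and 169 in IgG+Mino, a log2 fold change of 0.38, and one of -2.46 in the APB5 pair. In all 3 genes the APB5 libraries were the high ones and the IgG groups overlapped or lay close to each other.

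The other signal came from genes outside the comparison. Ddx3y, Uty, Kdm5d and Eif2s3y, all on the Y chromosome, together had 9336 counts or more in every IgG+Mino library and at most 3 in an IgG library. Mixed-sex groups are described in the methods of the study. The 3 libraries of each IgG group were of 1 kind, so every difference given for this pair is one of minocycline and sex together.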

How the results depend on the processing

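No fit separates minocycline from sex within the IgG groups, and genes such as Il1b and Tnf had too few counts at this depth to be tested. The number of genes called higher, 0, became 8 with DESeq2, 50 with limma voom and quality weights, 1 with robust estimation (Prn, adjusted p = 0.0480), 6 without a count filter, 1 with a replicate block (Gm10222, adjusted p = 0.0434) and 63 at an unadjusted p. Leaving out single replicates gave 0 to 4, the 4 being mt-Atp6, mt-Cytb, Hba-a1 and Hbb-bs without IgG replicate 3, and 2 (Gm10222 and Kcnh5) without IgG+Mino replicate 1. The number called lower, 1, became 6 with DESeq2, 55 with voom, 2 without a count filter and 87 at an unadjusted p. It became 0 with at least 10 counts required in every library (which removes Gm21093), with all 12 libraries in the fit, with the block, with either Xist covariate, and with autosomal and mitochondrial genes only. It was also 0 in both alternatives chosen after seeing the data, autosomal genes only and high or low Xist without APB5 replicate 3. Leaving out replicates gave 1 to 1. Voom with quality weights called 6 of the 13 mitochondrially encoded genes, DESeq2 mt-Atp8 and mt-Nd5. The number of genes called for the interaction of antibody and minocycline, 3, became 364 with DESeq2 and 673 with the Xist level as a covariate, and ranged from 0 to 111 when single replicates were left out (0 without IgG replicate 1, APB5+Mino replicate 1 or 3, 1 without IgG replicate 2, 5 without APB5 replicate 1, 8 without IgG+Mino replicate 1, 34 without IgG replicate 3, 68 without APB5 replicate 3 and 111 without APB5 replicate 2). The cause was not tested.

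With the Xist level as a covariate, log2 fold changes turned sign for Dscaml1 (-0.054), Frmpd1 (-0.074), Mgp (1.18), Apoe (0.57), Lyz2 (1.83), Cx3cr1 (0.15), Aif1 (0.26), Csf1r (0.54), Il18 (0.0087), Ctss (0.72), Fcgr2b (0.77), C1qb (1.30), C1qc (0.90) and Prdx1 (0.18). With high or low Xist they were -0.13, -0.12, 1.36, 0.70, 2.12, 0.33, 0.41, 0.69, 0.055, 0.89, 0.97, 1.52, 1.14 and 0.23 in that order and 0.044 for Pf4. With high or low Xist but without APB5 replicate 3, Hsp90b1 turned sign (0.0050) and the genes above kept the sign they had without a covariate. Among the APB5 groups, the sex term of that fit rested on APB5+Mino replicate 3 alone. The median of the mitochondrially encoded genes stayed positive and that of the endothelial list negative under every setting, between 0.36 and 0.92 and between -0.52 and -0.07. Of the other gene values, 1630 kept their direction and their side of the threshold, 37 newly passed it and 7 no longer did. Deviations of same-numbered libraries correlated at 0.008, 0.063 and -0.148, and those of differently numbered libraries at -0.226 to 0.200. These values cannot decide whether the replicate numbers pair the samples, which was not given in the sources used here. The block called 4 genes for the interaction.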

Other observations

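Genes of several tissues next to the retina gave values that turned on single libraries. The 16 genes of pigment epithelium and melanocytes had a median log2 fold change of -0.12, which was 0.22 without IgG+Mino replicate 1. The lens list, at a median of 0.76, was at -3.50 without IgG+Mino replicate 3 and at 1.91 without IgG replicate 1. Of 11 genes of cornea and conjunctiva 6 were tested, all 6 negative with a median of -0.81, and -0.17 without IgG replicate 2. Skeletal muscle genes differed from these. Of 12 genes 7 were tested, 6 of them negative with a median of -0.28 and a range of -0.49 to -0.24 when single libraries were left out, and for 3 of them, Acta1, Mylpf and Ckm, the groups were apart on the lower side, against 7.37% of all genes. Relative to the mean of the 6 libraries, the mean log2 level of these 7 genes was at 0.12, 0.15 and -0.03 in IgG and at -0.04, -0.08 and -0.12 in IgG+Mino, so the groups did not overlap, as for the endothelial list. None was called, the smallest adjusted p being 0.587, and their summed level was 6.97 to 9.08 CPM. Of 13 genes of neutrophils and T cells only 1 had enough counts to be tested.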
